A study of Mus musculus with 8 samples.

Results

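The TRBJ2 cluster is the group of joining (J) segments of the mouse T cell receptor beta locus that lies between the diversity segment TRBD2 and the constant gene TRBC2. Its members were taken as every assembled beta chain whose J gene call was a TRBJ2 segment, in the 4 single-cell TCR libraries of the study. This gave 1788 of 2967 beta chains, carried by 1766 of 2920 cells with a beta chain. The chains came from 6 segments, TRBJ2-1, TRBJ2-2, TRBJ2-3, TRBJ2-4, TRBJ2-5 and TRBJ2-7. A beta rearrangement was defined as 1 combination of library, deposited clonotype, V gene, J gene and CDR3 nucleotide sequence. Each beta chain of a deposited clone thus counts once however many cells carry it, and a clone with a pair of beta chains counts for both. By this count the TRBJ2 cluster made 1074 of 1691 rearrangements, and the TRBJ1 cluster the other 617.

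The animals were male C57BL/6 mice, called B6 in the labels, that all received traumatic brain injury (TBI) by controlled cortical impact. Young mice were 13 to 15 weeks old and aged mice 80 to 82 weeks old at injury. They were given an antibody against CD49d (aCD49d, clone PS/2), the alpha 4 integrin subunit that T cells use to enter tissue, or an isotype control antibody. Dosing started 2 h after injury and was repeated every 2 weeks. Brains were taken 2 months after injury and CD45+ cells, which are leukocytes, were sorted and captured with 10x Genomics 5' v2 immune profiling. The groups YTBI_Isotype (young, isotype), YTBI_aCD49d (young, antibody), ATBI_Isotype (aged, isotype) and ATBI_aCD49d (aged, antibody) each had 1 library made from 2 pooled mice. A clone seen in 1 mouse therefore cannot be told apart from one seen in both, no pair of groups has a replicate check, and no test across the 4 libraries was run. Intervals given here are 95% Clopper-Pearson intervals for shares and 95% Newcombe intervals for differences, cover counting error only, and say nothing of how mice of a group differ. Cells of a clone descend from 1 rearrangement and are not independent draws, so an interval over cells is narrower than the real uncertainty.

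A beta chain gene is assembled in the developing thymocyte, when a D segment is first joined to a J segment and a V gene is then joined to the DJ product. The locus holds a pair of D-J-C units, TRBD1 with the TRBJ1 segments and TRBC1, followed by TRBD2 with the TRBJ2 segments and TRBC2. Deletion of the DNA in between lets TRBD1 join either J cluster, whereas TRBD2 lies beyond all TRBJ1 segments. The J segment supplies the end of the CDR3, the loop that contacts the peptide held by MHC, and RNA splicing connects the J segment to the nearest constant gene. Each J segment is preceded by a recombination signal that the RAG proteins recognise, made of a nonamer, a 12-base spacer and a heptamer. Bases are lost from the J end, and others are added, when the joint is made.

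The germline segments are shown because the values below turn on where each one begins and how much of it the CDR3 uses. They were read from GRCm38 (mm10), plus strand of chromosome 6, with the GENCODE vM21 positions, and the cluster from the start of TRBJ2-1 to the end of TRBJ2-7 covers 1103 bases at chr6:41542754-41543856. Each line runs 5′ to 3′ from 28 bases before the segment to its end. Capitals mark the part of the segment that codes for CDR3, up to and including the codon of the conserved phenylalanine, and the 7 bases in lower case just before them are the heptamer.
TRBJ2-1: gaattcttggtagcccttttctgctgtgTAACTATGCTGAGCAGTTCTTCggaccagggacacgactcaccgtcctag
TRBJ2-2: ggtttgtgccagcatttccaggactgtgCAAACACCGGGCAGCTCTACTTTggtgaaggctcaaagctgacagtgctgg
TRBJ2-3: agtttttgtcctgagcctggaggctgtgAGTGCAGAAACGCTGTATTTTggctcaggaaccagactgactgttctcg
TRBJ2-4: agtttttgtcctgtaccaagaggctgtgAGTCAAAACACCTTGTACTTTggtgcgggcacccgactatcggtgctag
TRBJ2-5: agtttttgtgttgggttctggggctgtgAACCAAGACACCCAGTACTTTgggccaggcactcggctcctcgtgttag
TRBJ2-7: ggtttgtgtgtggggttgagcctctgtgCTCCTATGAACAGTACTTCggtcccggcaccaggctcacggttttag

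TRBJ2-1 lies at chr6:41542754-41542803, 578 bases after the end of TRBD2, and is the segment nearest to it. TRBJ2-2 follows at chr6:41542957-41543007, TRBJ2-3 at chr6:41543223-41543271, TRBJ2-4 at chr6:41543362-41543410 and TRBJ2-5 at chr6:41543453-41543501. TRBJ2-7, at chr6:41543810-41543856, is the farthest from TRBD2, at 1634 bases. The CDR3-coding part is longest in TRBJ2-2, with 23 bases, and shortest in TRBJ2-7, with 19 bases. It has 22 bases in TRBJ2-1 and 21 bases in TRBJ2-3, TRBJ2-4 and TRBJ2-5. Against the heptamer cactgtg, 6 of 7 bases matched in TRBJ2-2 and TRBJ2-7 and 5 of 7 in the other segments. TRBJ2-3, TRBJ2-4 and TRBJ2-5 share the heptamer ggctgtg, and TRBJ2-3 and TRBJ2-4 also start with the same bases, AGT. TRBJ2-6, at chr6:41543598-41543645, is annotated as a pseudogene and its heptamer ggttgtg matched 4 of 7 bases. No chain was called TRBJ2-6, and since only productive chains are in the tables this says nothing of its use. TRBC2 lies downstream of the cluster, at chr6:41546730-41548352.

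The number of cells and the UMIs per beta chain differed between libraries. The libraries held 252 to 1102 cells with a beta chain each, with 3207 to 13592 beta-chain UMIs in all. The median beta chain rested on 11 UMIs in YTBI_Isotype and 9 in YTBI_aCD49d, and on 7 in ATBI_Isotype and 10 in ATBI_aCD49d. No cell barcode was shared between libraries apart from 1 found in both ATBI_Isotype and ATBI_aCD49d. Only TCR contigs were analysed here, so CD4, CD8 and other T cell markers were not measured for these cells.

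The TRBJ2 cluster was used by most rearrangements in each of the 4 libraries. It made 70.0% of 230 rearrangements in YTBI_Isotype (interval 63.6 to 75.8%) and 67.8% of 456 in YTBI_aCD49d (63.3 to 72%). In the aged brains it made 58.1% of 461 rearrangements in ATBI_Isotype (53.5 to 62.7%) and 61.8% of 544 in ATBI_aCD49d (57.5 to 65.9%). Both young libraries thus lay above both aged ones. The aged library was lower by 11.9 percentage points with isotype (a difference of -11.9, interval -19.3 to -4.04) and by 6.0 with aCD49d (-6.0, interval -12 to 0.0939), the latter interval including 0 as reported and leaving it out under 5 of 7 alternative settings. The antibody library differed from its isotype library by -2.24 points in young brains (-9.62 to 5.43) and by 3.63 points in aged brains (-2.58 to 9.83), and neither difference exceeded counting error.

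Counted by cells, the share stood apart from that by rearrangements in both aged libraries. It was lower in ATBI_Isotype. In ATBI_aCD49d it was higher, at 70.2% of cells (67.4 to 72.9%) against 61.8% of rearrangements (57.5 to 65.9%). TRBJ2 chains were carried by 72.2% of 252 cells in YTBI_Isotype, 69.8% of 562 in YTBI_aCD49d and 70.2% of 1102 in ATBI_aCD49d. In ATBI_Isotype they were carried by 41.0% of 1004 cells (38.0 to 44.2%). The aged aCD49d library was thus 29.2 points above the aged isotype library (25.0 to 33.3), although the same libraries were 3.63 points apart by rearrangements. The young antibody library differed from its isotype library by -2.47 points (-9.21 to 4.59). The aged library differed from the young one by -31.2 points with isotype (-37.4 to -24.5) and by 0.485 points with aCD49d (-4.21 to 5.29). The gap moved with clones of 10 or more cells. In ATBI_Isotype, 354 cells were in TRBJ1 clones of that size and 75 in TRBJ2 clones, whereas ATBI_aCD49d had 76 and 357. Without clonotypes of 10 or more cells, a comparison added after these values were seen, TRBJ2 was carried by 58.6% of cells in ATBI_Isotype and 62.3% in ATBI_aCD49d, a difference of 3.72 points (-1.83 to 9.27). The aged minus young differences were then -13.6 points with isotype (-20.5 to -6.4) and -7.02 points with aCD49d (-12.5 to -1.46). Both were below 0 as they were by rearrangements, where the interval with aCD49d included 0. Leaving out large clonotypes brings a count of cells closer to a count of rearrangements, so this likeness is partly built in.

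**Figure D1:**
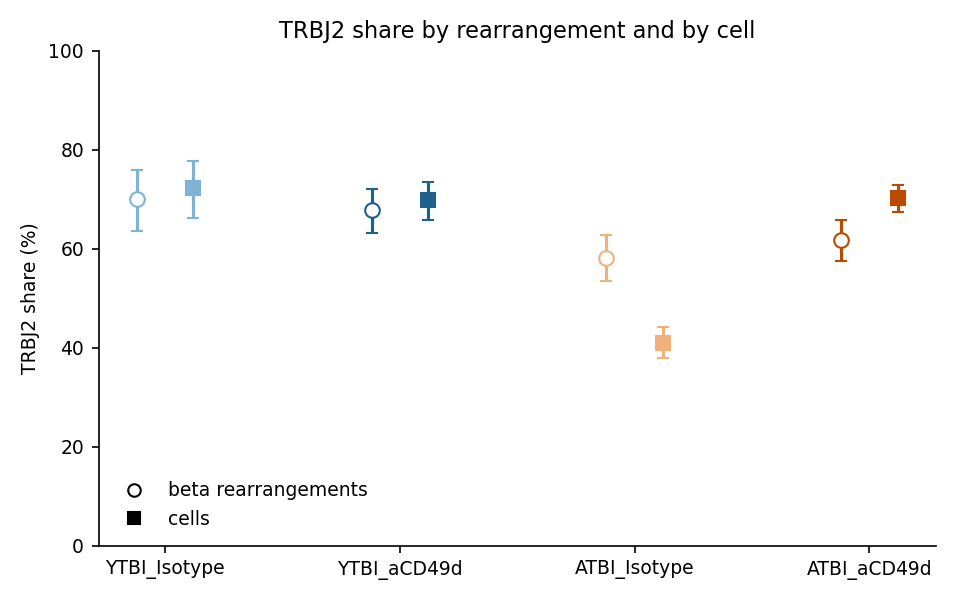
TRBJ2 share in percent (vertical axis) in each of the 4 libraries, counted over beta rearrangements (open circles) and over cells (filled squares); bars are 95% Clopper-Pearson intervals, which cover counting error only. The circles lie between 58.1% and 70.0%, and the square of ATBI_Isotype, at 41.0%, is the only one below its circle.

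Among the members, TRBJ2-7 was the most frequent segment. Over all libraries it made 19.3% of 1691 rearrangements, with 17.4% in YTBI_Isotype and 21.7% in YTBI_aCD49d, and 20.4% in ATBI_Isotype against 17.3% in ATBI_aCD49d. It ranked first in all 4 libraries, and its interval was separate from that of TRBJ2-1 in 3 of them and overlapped in YTBI_Isotype. TRBJ2-1 made 15.2%, 10.1%, 11.5% and 8.82% of rearrangements in the same order of libraries, and 10.8% overall. TRBJ2-5 made 11.7%, 12.9%, 6.94% and 11.4%, and 10.6% overall. These segments changed places between libraries, TRBJ2-1 being above TRBJ2-5 in both isotype libraries and below it in both aCD49d libraries.

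By the overall shares the remaining segments were rarer, although TRBJ2-4 stood above TRBJ2-1 in both aCD49d libraries. TRBJ2-4 made 11.7%, 10.3%, 6.07% and 10.1% of rearrangements, and 9.28% overall. TRBJ2-3 was steadier, at 9.13%, 7.24%, 8.24% and 8.82%. TRBJ2-2 was the rarest member in every library and moved least, at 4.78%, 5.48%, 4.99% and 5.33%. From TRBJ2-1 down, the intervals of neighbours in the order of the overall shares overlapped in all 4 libraries. Segments further apart could be separate, as were TRBJ2-1 and TRBJ2-2 in YTBI_Isotype and TRBJ2-5 and TRBJ2-2 in YTBI_aCD49d. Frequency did not follow distance from TRBD2, since the farthest segment was the most used and the next to nearest, TRBJ2-2, the least.

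Intervals of the difference left out 0 for TRBJ2-4 and TRBJ2-5, in comparisons with ATBI_Isotype. TRBJ2-4 was 4.04 points higher in ATBI_aCD49d than in ATBI_Isotype (0.507 to 7.52), and TRBJ2-5 was 4.46 points higher (0.732 to 8.12). Against YTBI_Isotype, ATBI_Isotype was lower by 5.67 points for TRBJ2-4 (-5.67, interval -10.9 to -1.02) and by 4.80 points for TRBJ2-5 (-4.80, interval -10.1 to -0.0786). TRBJ2-1 and TRBJ2-3 were also lower there than in YTBI_Isotype, by differences of -3.72 and -0.887 points whose intervals included 0. These comparisons share the ATBI_Isotype library. Over the 4 library pairs and 6 segments, these were the only 4 of 24 intervals of TRBJ2 segments that left out 0. Over all 12 J segments the same happened for 33.3% in the aged antibody comparison, 25% in the comparison of isotype libraries by age, 8.33% in the comparison of aCD49d libraries by age and 0% in the young antibody comparison. In the same order TRBJ2 segments did so in 2, 2, 0 and 0 of 6 cases, and TRBJ1 segments in 2, 1, 1 and 0 of 6 cases.

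By cells, the members moved further and in different directions. TRBJ2-4 was carried by 10.7% of cells in YTBI_Isotype and 15.5% in YTBI_aCD49d, and 2.99% in ATBI_Isotype against 16.6% in ATBI_aCD49d. TRBJ2-7 was carried by 19.0%, 21.9%, 13.1% and 26.0% of cells. TRBJ2-1 went the other way in the aged brains, with 17.1%, 9.79%, 13% and 5.81%. TRBJ2-3 was carried by 9.92%, 6.05%, 4.58% and 10.1% of cells, and TRBJ2-5 by 11.1%, 11.7%, 4.78% and 8.53%. TRBJ2-2 stayed the rarest, with 4.37%, 4.80%, 2.49% and 3.18%. Between the aged libraries 5 of 6 TRBJ2 segments had an interval without 0, beside 91.7% of all 12 J segments. The same count was 4 of 6 beside 50% for the isotype libraries by age, 3 of 6 beside 58.3% for the aCD49d libraries by age and 1 of 6 beside 8.33% for the young libraries. Clonotypes of 10 or more cells held 46.1% of TRBJ2 cells in ATBI_aCD49d, against 18.2% in ATBI_Isotype, 7.65% in YTBI_aCD49d and 0% in YTBI_Isotype. The largest are described below, and cells of a clone carry the same J segment.

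**Figure D2:**
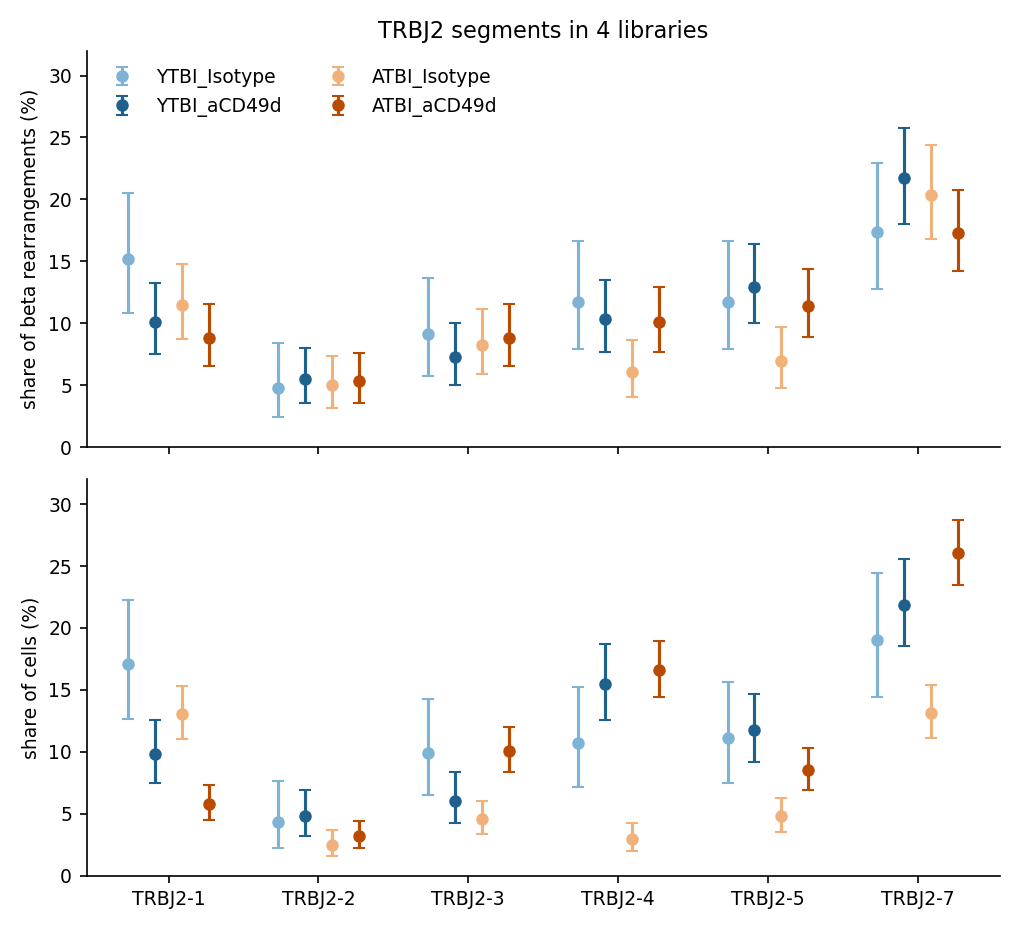
Share in percent of each TRBJ2 segment among beta rearrangements (upper panel) and among cells (lower panel) in the 4 libraries (colours); bars are 95% Clopper-Pearson intervals covering counting error only. TRBJ2-7 is highest in each library in the upper panel, and TRBJ2-4 spans 2.99% to 16.6% of cells in the lower panel against 6.07% to 11.7% of rearrangements.

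The constant gene call followed the J cluster call without exception. TRBC2, whose product anchors the beta chain in the membrane beside the CD3 signalling complex, was called in 1782 of 1782 TRBJ2 chains that had a constant gene call. TRBC1 was called in 0 of them, which allows up to 0.168%. Per library TRBC2 was called in 189 of 189 chains in YTBI_Isotype and 392 of 392 in YTBI_aCD49d, and 418 of 418 in ATBI_Isotype against 783 of 783 in ATBI_aCD49d. In the other direction 1174 of 1174 TRBJ1 chains with a call had TRBC1. The constant gene call thus matched the J call on every chain where both were present. Both calls were made by the same caller. Whether it set the constant gene independently of the J segment was not tested, so the match is no separate check of the J call. The 6 TRBJ2 chains without a constant gene call rested on 1 UMI each, against a median of 9 UMIs in TRBJ2 chains with a call. Of the 6, 4 used TRBV2, which made 29 of the 1074 TRBJ2 rearrangements.

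TRBD2 calls were nearly confined to TRBJ2 rearrangements, whereas TRBD1 was called with both clusters. A D gene was called in 26.9% of TRBJ2 rearrangements and in 21.1% of TRBJ1 rearrangements. Of the TRBJ2 calls 150 were TRBD1 and 139 were TRBD2, so TRBD2 made 48.1% (42.2 to 54.0%). It made 50.0% in YTBI_Isotype and 43.6% in YTBI_aCD49d, and 53.2% in ATBI_Isotype against 46.6% in ATBI_aCD49d, with overlapping intervals. In TRBJ1 rearrangements 128 calls were TRBD1 and 2 were TRBD2. Over the libraries together, TRBD2 was most frequent among the members with TRBJ2-4, at 71.9% of 32 calls (53.3 to 86.3%). It was least frequent with TRBJ2-2, at 33.3% of 27 calls (16.5 to 54.0%). This order did not hold in each library, as TRBJ2-2 gave 66.7% in YTBI_Isotype and TRBJ2-4 gave 42.9% in YTBI_aCD49d. Rearrangements with a D call had longer CDR3s, with a mean of 44.1 nucleotides against 41.4 without a call, so the D values describe the longer joints.

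Mean CDR3 length varied more between J segments than between libraries. The mean was 42.0 ± 4.39 nucleotides (SD, n = 161 rearrangements) in YTBI_Isotype and 42.1 ± 4.40 (n = 309) in YTBI_aCD49d, and 42.0 ± 4.55 (n = 268) in ATBI_Isotype against 42.4 ± 4.20 (n = 336) in ATBI_aCD49d. TRBJ2 and TRBJ1 rearrangements differed by -0.155, 0.524, 0.0933 and 0.741 nucleotides in the same order, with standard errors of 0.623, 0.395, 0.396 and 0.367. Lengths from 12 to 16 residues held 91.6% of TRBJ2 rearrangements, with 14 residues the most frequent at 29.0%.

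Among the members the mean ran from 44.2 ± 3.76 nucleotides (SD, n = 88) with TRBJ2-2 to 40.3 ± 4.44 (n = 327) with TRBJ2-7. TRBJ2-3 gave 43.9 ± 3.91 (n = 140), TRBJ2-1 43.2 ± 3.86 (n = 182), TRBJ2-4 42.7 ± 4.18 (n = 157) and TRBJ2-5 41.7 ± 4.11 (n = 180). TRBJ2-2 and TRBJ2-7 have the longest and the shortest germline CDR3-coding part. TRBJ2-7 gave the shortest mean in each library, at 40.4, 40.3, 39.8 and 40.6 nucleotides. The segment with the longest mean was TRBJ2-3 in both young libraries, at 44.4 and 44.3, and TRBJ2-2 in both aged libraries, at 44.5 and 44.7. TRBJ2-4 differed most between libraries, at 40.9 and 41.9 in the young and 43.6 and 43.9 in the aged brains.

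**Figure D3:**
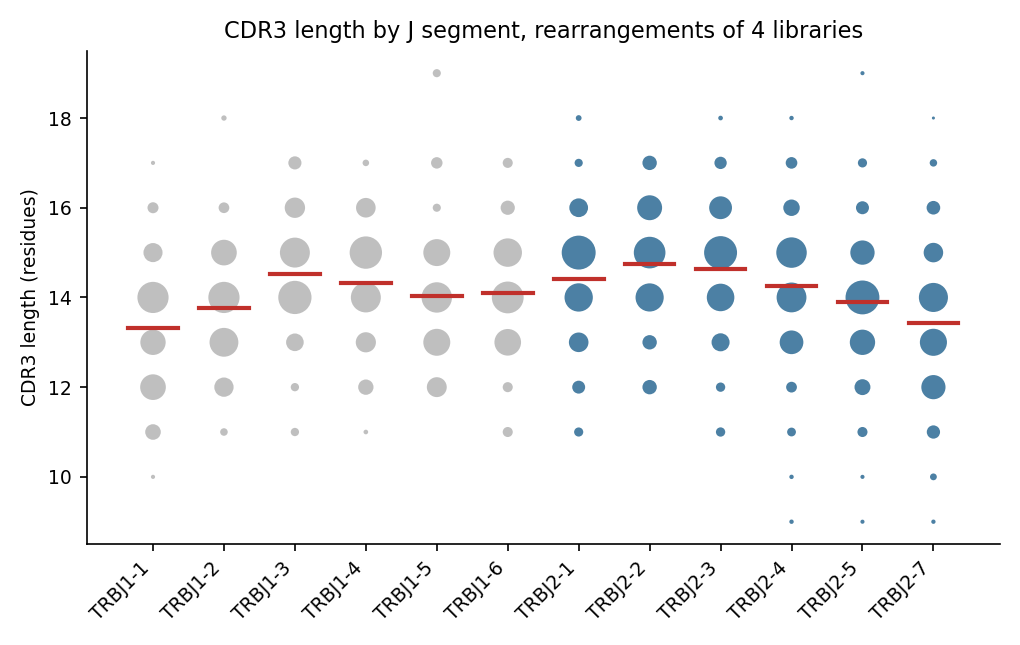
CDR3 length in residues (vertical axis) for each J segment, with rearrangements of the 4 libraries together; the area of a dot is the share of that segment's rearrangements with this length, blue is TRBJ2, grey is TRBJ1 and the red line is the mean. Within TRBJ2 the mean runs from 14.7 residues with TRBJ2-2 to 13.4 with TRBJ2-7.

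Loss of bases from the J end was estimated as the number of germline CDR3-coding bases, counted from the 5′ end, that the exact match at the end of the CDR3 did not reach. Added bases that happen to equal the germline are counted as kept, and a changed base within the segment is counted as loss. TRBJ2-3 lost least, with a mean of 1.40 ± 1.96 bases (SD, n = 140). TRBJ2-4 lost 2.43 ± 3.12, TRBJ2-2 2.44 ± 1.85, TRBJ2-5 3.18 ± 2.40, TRBJ2-1 3.28 ± 2.53 and TRBJ2-7 3.87 ± 2.64. In 1 TRBJ2-4 rearrangement no base matched, since its last base differed from the germline. TRBJ2-7 lost most in each library, at 4.2, 3.78, 4.09 and 3.62 bases, and TRBJ2-3 least, at 1.57, 1.30, 1.61 and 1.23.

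The full segment was kept in 46.4% of TRBJ2-3 rearrangements (38.0 to 55.0%) and 39.5% of TRBJ2-4 rearrangements (31.8 to 47.6%), the pair that starts with AGT. It was kept in 22.7% with TRBJ2-2, 19.3% with TRBJ2-7, 17.2% with TRBJ2-5 and 14.3% with TRBJ2-1. The intervals of TRBJ2-3 and TRBJ2-4 were separate from those of TRBJ2-1, TRBJ2-5 and TRBJ2-7. The part of the CDR3 before the J match, which holds the V end, the D segment and added bases, varied less between members, from 23.7 nucleotides with TRBJ2-2 to 25.1 with TRBJ2-7. Per library the mean loss over TRBJ2 was 3.16, 3.03, 3.12 and 2.82 bases, with standard errors of 0.227, 0.152, 0.158 and 0.140.

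V genes, which code for the rest of the variable domain, were ranked by their TRBJ2 share over the rearrangements of all libraries together. Of 22 V calls, 20 had at least 20 rearrangements. TRBV16 had the highest TRBJ2 share, at 73.8% of 103 rearrangements (64.2 to 82%), followed by TRBV5 at 71.1% of 90 and TRBV10 at 70.6% of 68. TRBV26 had the lowest, at 38.8% of 49 (25.2 to 53.8%), followed by TRBV29 at 52.6% of 78 and TRBV13-2 at 53.5% of 43. Only the intervals of TRBV16 and TRBV26 left out the share over all rearrangements, 63.5%. The TRBV26 share was 62.5% in YTBI_Isotype and 33.3% in YTBI_aCD49d, and 40.0% in ATBI_Isotype against 22.2% in ATBI_aCD49d, from 8 to 20 rearrangements a library. TRBV16 gave 57.1%, 74.1%, 74.1% and 80%. The order depends on the pooling, since the mean of the library shares was 72.9% for TRBV14, 72.3% for TRBV10, 71.7% for TRBV12-2 and 71.3% for TRBV16. At the low end TRBV26 was lowest either way, but TRBV3 then came next, with 52.1% against 53.7% for TRBV29 and 56.8% for TRBV13-2.

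TRBV3 and TRBV31 are named in addition, and were chosen after their values were seen. TRBJ2 made 76.6% of 47 TRBV3 rearrangements in ATBI_aCD49d (62.0 to 87.7%) against 38.2% of 34 in ATBI_Isotype (22.2 to 56.4%), and 46.7% and 47.1% in the young libraries. TRBV31, which lies downstream of TRBC2 and joins by inversion, had a TRBJ2 share of 62.5% of 72 over all libraries (50.3 to 73.6%), close to that of all rearrangements. TRBJ2 was joined in 4 of 4 TRBV31 rearrangements of YTBI_Isotype and 22 of 30 in YTBI_aCD49d, and in 13 of 28 in ATBI_Isotype against 6 of 10 in ATBI_aCD49d.

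**Figure D4:**
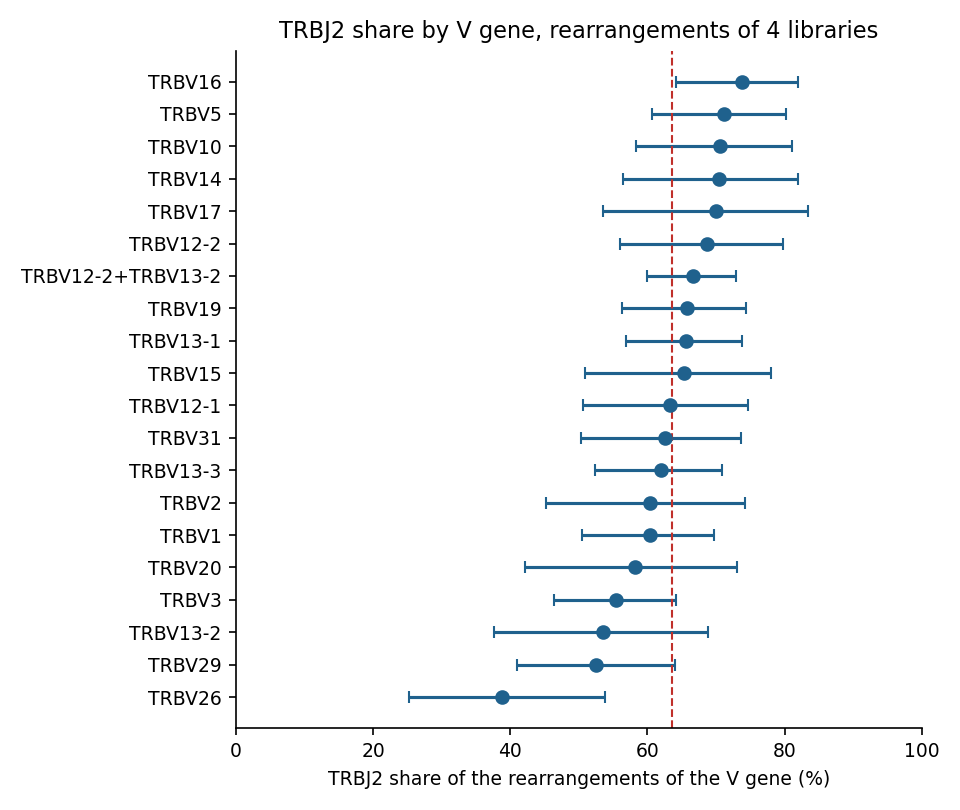
TRBJ2 share in percent (horizontal axis) of the rearrangements of each V gene with at least 20 rearrangements, over the 4 libraries together; bars are 95% Clopper-Pearson intervals covering counting error only and the dashed line is the share over all rearrangements, 63.5%. The bars of TRBV16, above, and TRBV26, below, do not reach the line.

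Each member paired with 20 to 22 V calls. The most frequent partner of every member was the call TRBV12-2+TRBV13-2, in which the caller named both genes. Separate calls of TRBV12-2 and of TRBV13-2 also occur, and which gene a joint call stands for was not resolved here. It made 18.3% of TRBJ2-5 rearrangements (13 to 24.8%), 14.8% with TRBJ2-1, 13.6% with TRBJ2-3, 13.4% with TRBJ2-4, 10.2% with TRBJ2-2 and 10.1% with TRBJ2-7, against 12.6% of all rearrangements. V profiles were compared between J segments by the total variation distance, which is 0 for equal shares and 1 for no V gene in common. TRBJ2-3 and TRBJ2-4 were each other's nearest at 0.159, TRBJ2-1 and TRBJ2-5 were nearest to TRBJ2-7 at 0.152 and 0.193, TRBJ2-7 was nearest to TRBJ1-1 at 0.137 and TRBJ2-2 to TRBJ1-4 at 0.173. The distance also falls as the number of rearrangements rises, so the order is a description. TRBJ1-6 was the least like segment for all 6 members.

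Expanded clonotypes, those of 2 or more cells, were compared with clonotypes of a single cell. TRBJ2 made 17 of 19 expanded rearrangements in YTBI_Isotype, 89.5% against 68.2% of single-cell ones, a difference of 21.2 points (-2.22 to 32.7). In YTBI_aCD49d it made 30 of 39, 76.9% against 66.9%, a difference of 10.0 points (-6.84 to 22.9). In ATBI_Isotype the order was the opposite, with 46 of 89, 51.7% against 59.7%, a difference of -7.99 points (-19.9 to 3.92). In ATBI_aCD49d it made 53 of 82, 64.6% against 61.3%, a difference of 3.38 points (-8.81 to 14.6), which turned to -0.617 when rearrangements were counted without the deposited clonotype. All 4 intervals included 0, so no difference was detectable with this number of expanded clonotypes.

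Seen from the members, 10.6% of TRBJ2 rearrangements were expanded in YTBI_Isotype and 9.71% in YTBI_aCD49d, and 17.2% in ATBI_Isotype against 15.8% in ATBI_aCD49d. Of TRBJ1 rearrangements 2.90%, 6.12%, 22.3% and 13.9% were expanded in the same order, and the intervals of the clusters overlapped in each library. The shares of cells in expanded TRBJ2 clonotypes were further apart, at 24.7%, 29.1%, 47.3% and 64.9%. For TRBJ1 the corresponding shares of cells were 7.14%, 20%, 75.3% and 47.0%. TRBJ2 therefore held the larger expanded share in 3 libraries and TRBJ1 in ATBI_Isotype. In ATBI_aCD49d, cells per rearrangement were 3.33 for TRBJ2-4, 3.05 for TRBJ2-7 and 2.31 for TRBJ2-3, against 1.21 for TRBJ2-2. A single clonotype held 51 of the 111 TRBJ2-3 cells of that library. In ATBI_Isotype they were highest for TRBJ2-1, at 2.47, and 1.07 for TRBJ2-4.

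**Figure D5:**
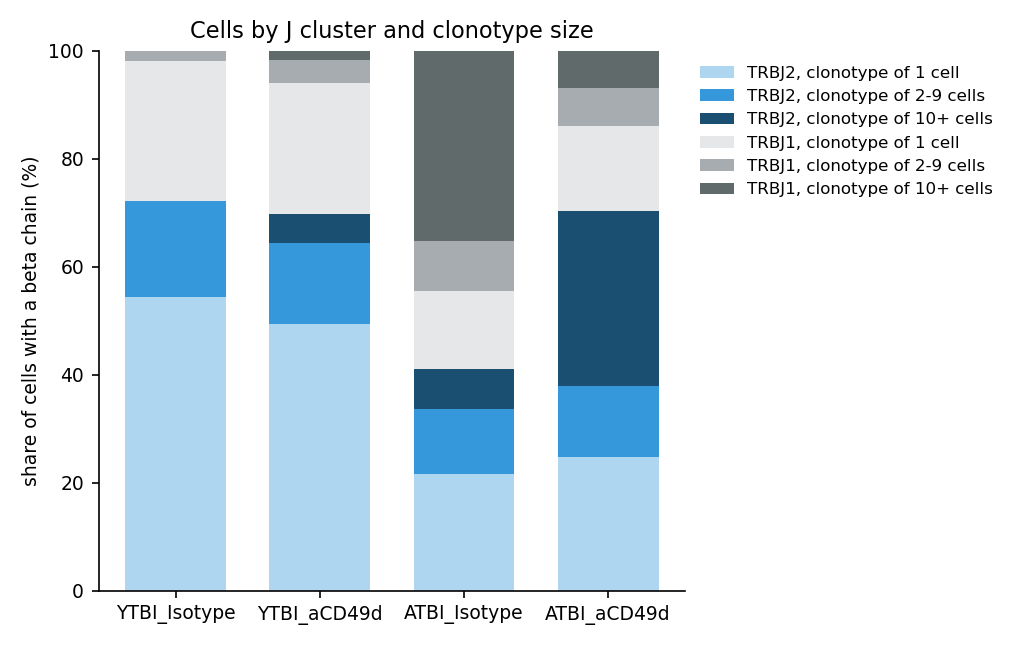
Cells with a beta chain in each library (vertical axis, percent of cells), divided by J cluster (blue TRBJ2, grey TRBJ1) and by the number of cells in the deposited clonotype (darker for larger). Clonotypes of 10 or more cells hold 35.3% of cells through TRBJ1 and 7.47% through TRBJ2 in ATBI_Isotype, against 6.90% and 32.4% in ATBI_aCD49d.

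The TRBJ2 clonotypes with most cells are shown because clonotypes of 10 or more cells held 46.1% of TRBJ2 cells in ATBI_aCD49d. That share was lower in the other libraries. Each line gives the CDR3 of the beta chain from the conserved cysteine codon to the phenylalanine codon, with the part that matches the germline J segment in capitals.
YTBI_Isotype TRBV13-3 TRBJ2-7: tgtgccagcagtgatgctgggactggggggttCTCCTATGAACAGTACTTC
YTBI_Isotype TRBV5 TRBJ2-1: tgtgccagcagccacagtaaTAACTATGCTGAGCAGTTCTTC
YTBI_aCD49d TRBV31 TRBJ2-4: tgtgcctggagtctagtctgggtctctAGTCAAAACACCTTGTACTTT
YTBI_aCD49d TRBV15 TRBJ2-7: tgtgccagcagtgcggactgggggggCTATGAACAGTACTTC
ATBI_Isotype TRBV19 TRBJ2-1: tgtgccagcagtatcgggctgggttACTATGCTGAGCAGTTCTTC
ATBI_Isotype TRBV5 TRBJ2-1: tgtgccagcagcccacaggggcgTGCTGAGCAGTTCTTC
ATBI_aCD49d TRBV12-2+TRBV13-2 TRBJ2-4: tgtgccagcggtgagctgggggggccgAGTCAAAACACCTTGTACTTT
ATBI_aCD49d TRBV10 TRBJ2-7: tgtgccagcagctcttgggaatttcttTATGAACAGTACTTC

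In YTBI_Isotype the largest TRBJ2 clonotype, TRBV13-3 with TRBJ2-7, held 7 cells, 2.78% of cells with a beta chain, and the largest of the library. The next, TRBV5 with TRBJ2-1, held 4 cells, as did 1 further TRBJ2-1 clonotype. In YTBI_aCD49d the TRBV31 TRBJ2-4 clonotype held 33 cells, of which 30 had the beta chain, 5.34% of cells. That clone kept the full J segment, and it held 30 of the 87 TRBJ2-4 cells of the library. The TRBV15 TRBJ2-7 clonotype held 6 cells, as did 1 further TRBJ2-4 clonotype.

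In ATBI_Isotype the largest TRBJ2 clonotype was the rank 4 clonotype of the library. It joined TRBV19 to TRBJ2-1 in 51 cells, 5.08% of cells (3.81 to 6.63%), and the TRBV5 TRBJ2-1 clonotype held 13. TRBJ2-1 clonotypes of 2 or more cells held 90 of the 131 TRBJ2-1 cells of that library. In ATBI_aCD49d the 3 largest clonotypes of the library all used TRBJ2. TRBV12-2+TRBV13-2 with TRBJ2-4 held 101 cells, 9.17% of cells (7.53 to 11.0%), and kept the full J segment beside a TRBD2 call. TRBV10 with TRBJ2-7 had its beta chain in 77 cells, 6.99%, and lacked 4 bases of the segment. The next, TRBV3 with TRBJ2-7, held 69 cells, 6.26%. The 101 cells were more than the 82 other TRBJ2-4 cells of the library, and the 2 TRBJ2-7 clones held 146 of its 287 TRBJ2-7 cells.

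Few TRBJ2 sequences recurred between libraries. The 1074 rearrangements held 1064 distinct combinations of V gene, J gene and CDR3 nucleotide sequence, and 1 of these was found in more than 1 library. It joined TRBV12-2+TRBV13-2 to TRBJ2-5 in 1 cell of YTBI_Isotype and 1 cell of YTBI_aCD49d, and is shown with J bases in capitals.
Shared TRBJ2-5 CDR3: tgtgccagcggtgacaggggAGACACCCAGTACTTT
At the level of residues, 5 of 1056 distinct TRBJ2 CDR3s were found in more than 1 library, and 1 of 608 TRBJ1 CDR3s. TRBJ2-5 was the segment in 3 of the 5. Another TRBJ2-5 CDR3, found in 15 cells of ATBI_aCD49d and 1 cell of YTBI_aCD49d, had the same residues but differed by 2 bases, and the pair is shown because both bases lie in the joint before the J match.
ATBI_aCD49d TRBJ2-5: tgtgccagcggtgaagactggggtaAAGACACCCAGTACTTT
YTBI_aCD49d TRBJ2-5: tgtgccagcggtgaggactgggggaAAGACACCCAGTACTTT

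An alpha chain was recovered in 83.0% of TRBJ2 cells in YTBI_Isotype and 75.8% in YTBI_aCD49d, and 68.0% in ATBI_Isotype against 83.5% in ATBI_aCD49d, and in 80%, 82.4%, 66.2% and 82.3% of TRBJ1 cells. TRAV11 joined to TRAJ18, the alpha chain of invariant NKT cells, was found in 112 cells with a beta chain, of which 58 used TRBJ2 (51.8%, 42.1 to 61.3%). These were 14 of 20 cells in YTBI_Isotype and 19 of 33 in YTBI_aCD49d, and 5 of 21 in ATBI_Isotype against 20 of 38 in ATBI_aCD49d. TRBJ2-5 was the most frequent member in the young libraries, with 5 and 7 of these cells. It was absent from the 5 in ATBI_Isotype, and in ATBI_aCD49d it had 3 against 6 for TRBJ2-1.

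Cells with a pair of beta chains were few. Both chains used TRBJ2 in 22 cells, 1 used each cluster in 14 cells and both used TRBJ1 in 11 cells. Doublets were not called, and such cells may hold chains of both alleles or of more than 1 cell, which cannot be told apart here.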

How the data were processed

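TCR libraries of 4 groups were analysed, 1 library of 2 pooled mice per group. The authors aligned the reads to mm10 with Cell Ranger (7.2.0 in the submitters' processing notes) and deposited contig tables, whose UMI and read values are counts per assembled chain, and clonotype tables, which give the cell count and the fraction of cells of each clonotype. All 5386 deposited chains carried the caller's flags for cell, high confidence, full length and productive. Failed joins were therefore not measured, and rare clones depend on the number of cells captured. The deposited fractions were not needed for the shares, which were recomputed from cells with a beta chain.

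The 7 named members and the lists used here were chosen with earlier results of these data known. Chains were joined to clonotypes by clonotype number and reduced to rearrangements (library, deposited clonotype, V, J and CDR3 nucleotides). For counts of cells, the beta chain with most UMIs was taken for each cell. A clonotype was called expanded from 2 cells, as in its deposited cell count. V genes were ranked by TRBJ2 share from 20 rearrangements, and the 3 highest and 3 lowest are named, as are the 2 TRBJ2 clonotypes with most cells per library. With 1 library per group no pair of groups can be tested, and no model over the 4 libraries was fitted, so 95% intervals are given (scipy 1.17.1, pandas 2.3.3, Python 3.11.15). For a count of 0, the upper limit is 3 counts of the total. Germline segments were read from GRCm38 by the GENCODE vM21 annotation. Intervals and the J match were tested on simulated data, where chance matches hid 0.276 lost bases on average over 2000 simulated joins. The matching transcriptome libraries were not used here.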

Additional observations from a re-analysis of the deposited data

Results flagged for a closer look

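The antibody minus isotype difference in TRBJ2 share had opposite signs by age. Over rearrangements it was -2.24 percentage points in young (-9.62 to 5.43) and 3.63 in aged brains (-2.58 to 9.83). Over cells it was -2.47 in young (-9.21 to 4.59) and 29.2 in aged brains (25.0 to 33.3). Only the interval of the last value left out 0. Without clonotypes of 10 or more cells that value was 3.72 (-1.83 to 9.27). With 1 library per group the difference between these differences was not tested.

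The TRBJ2 share of expanded minus single-cell rearrangements was 21.2 points in YTBI_Isotype, 10.0 in YTBI_aCD49d and 3.38 in ATBI_aCD49d, but -7.99 in ATBI_Isotype. The sign was not stable in 2 of these, since ATBI_aCD49d gave -0.617 when rearrangements were counted without the deposited clonotype, and YTBI_aCD49d gave -16.9 with expanded defined as 10 or more cells. The difference between libraries was not tested, and the interval of each value included 0.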

How the results depend on the processing

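Of 375 recomputed values, 358 stayed within the interval of the reported value and the other 17 are given here. No reported value whose own interval left out 0 changed sign. Without the largest clonotype of each library, TRBJ2 was carried by 45.9% of cells in ATBI_Isotype and 67.2% in ATBI_aCD49d, 21.4 points apart. Without the 3 largest clonotypes, a choice made after seeing the data, these shares were 56.7% and 61.6%, 4.89 points apart (-0.0604 to 9.82). The aged minus young difference over cells was then -13.7 points with isotype and, against 0.485 as reported, -8.65 with aCD49d (-13.8 to -3.37), a change of sign. Without clonotypes of 10 or more cells, also chosen after seeing the data, the shares were 58.6% and 62.3%, 3.72 points apart, and the aged minus young differences were -13.6 and -7.02 (-12.5 to -1.46), the latter again with the opposite sign to the reported value. The difference between the aged libraries over cells thus rests on a few clones. With expanded defined as 10 or more cells, the expanded minus single-cell difference was -16.9 points in YTBI_aCD49d (-65.9 to 32.1) and -26.3 in ATBI_Isotype (-52.7 to 10.8), and no such clone was found in YTBI_Isotype. Weighted by cells, mean CDR3 length was 42.7 nucleotides in YTBI_aCD49d and 44.2 in ATBI_aCD49d.

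The aged minus young difference over rearrangements with isotype stayed between -14.2 and -10.1 points under all 7 alternatives run for it. The number of expanded clonotypes, 19 to 89 a library, limits the comparison with single cells, and the pools of 2 mice limit each comparison between groups. No paired analysis was possible because a single library stands for every group.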

Other observations

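Alpha chains were compared between the clusters over rearrangements whose clonotype had an alpha chain, 880 for TRBJ2 and 495 for TRBJ1. Of 19 TRAV families, 3 had an interval of the difference without 0. TRAV4 was found with 7.50% of TRBJ2 and 4.44% of TRBJ1 rearrangements, a difference of 3.06 percentage points (0.298 to 5.60). TRAV11, the family of the invariant NKT alpha chain, was found with 6.70% and 10.7%, a difference of -4.0 points (-7.44 to -0.820). TRAV3 was found with 4.32% and 7.07%, a difference of -2.75 points (-5.66 to -0.139). The libraries were pooled for these values, and the families were looked at after the other results were known.

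Within a library, 7 TRBJ2 sequences identical in V gene, J gene and CDR3 nucleotides were found in more than 1 deposited clonotype, in 16 clonotypes altogether, and 4 TRBJ1 sequences in 8 clonotypes.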
